A study of Mus musculus with 6 samples.

Results

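The 83 genes described here carry symbols of cytosolic ribosomal proteins or their close relatives. They were chosen by symbol alone: Rpl or Rps followed by a number (with a, x, l or l1 allowed at the end), the 3 stalk genes Rplp0, Rplp1 and Rplp2, and Rpsa. They are 83 of the 24346 gene symbols in each file, 51 counted by symbol with the large subunit and 32 with the small subunit. Of the 83, 80 reached 1 FPKM in at least 3 libraries and entered the tests, and Rpl10l, Rpl3l and Rpl39l did not.

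RNA came from whole hippocampus of 12-month-old mice on the C57BL/6 strain. One group (WT 1 to WT 3) was wild type and the other (HET 1 to HET 3) carried 1 disrupted allele of TonEBP, the tonicity-responsive transcription factor encoded by Nfat5. The groups were littermates from a cross of heterozygotes, and the labels give no treatment. The disruption is not restricted to a cell type in the labels, and its position within the gene is not stated. The libraries are numbered within each genotype, and nothing says that each came from its own animal, so p-values measure only the spread between these libraries.

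A ribosome consists of a small subunit, which reads the mRNA, and a large subunit, which joins amino acids into protein. Each mature ribosome holds 1 copy of most of its proteins, and the stalk proteins encoded by Rplp1 and Rplp2 are present in more copies. Messages of ribosomal proteins typically begin with a pyrimidine tract, the 5′ terminal oligopyrimidine (TOP) motif, through which growth signalling by mTOR controls their translation together. Many of these genes have processed pseudogenes in mammalian genomes, which complicates the counting of their reads. In neurons, ribosomes sit in the cell body and also in dendrites, where they make protein close to synapses.

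Levels are given in FPKM, a fragment count divided by transcript length and by library depth, after conversion from the deposited log2 scale. The files list no fragment counts. From the spacing of low values, depth was estimated at 7750000 fragments in HET 1, the shallowest library, and 12400000 in HET 3, the deepest. By that estimate, the lowest library of a tested ribosomal protein gene held a median of about 2500 fragments, and the lowest of all, for Rps27, about 17. Nfat5 was at 10.5, 8.39 and 9.72 FPKM in WT 1 to WT 3 and at 8.25, 9.31 and 8.42 FPKM in HET 1 to HET 3. The genotypes overlapped, so this whole-gene value does not check the genotype labels. WT 2, HET 1 and HET 3 were its lowest libraries, an order found in 8.9% of all genes tested. Markers of hippocampal fields were present, among them the granule cell gene Prox1 at 13.9 ± 0.740 FPKM (SD, n = 3) in wild type. Marker genes of choroid plexus and thalamus differed between libraries, and their values stand beside the results they touch.

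Ribosomal protein messages were abundant. They made up 9.54%, 11.2% and 9.60% of the summed FPKM of protein-coding genes in wild-type libraries 1 to 3, and 10.6%, 9.74% and 11.0% in HET 1 to HET 3. WT 2, HET 1 and HET 3 had the larger shares and WT 1, WT 3 and HET 2 the smaller ones, so that the genotypes overlapped. Of the 80 tested genes, 71 had a mean above 100 FPKM and 5 a mean above 1000 FPKM. The median level was 454 FPKM over the 32 small subunit genes and 369 FPKM over the 48 tested large subunit genes.

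The 5 most abundant genes were Rplp1, Rps21, Rpl38, Rps14 and Rpl41. Rplp1 (chromosome 9, 61913283 to 61914510, GRCm38), which encodes an acidic protein of the stalk that recruits translation factors, was at 1504, 1904 and 1480 FPKM in WT 1 to WT 3 and at 1791, 1577 and 1797 FPKM in HET 1 to HET 3. The highest library was a wild-type one, and the other wild-type libraries lay below all 3 HET libraries. Rps21, a small subunit gene, was at 1386, 1838 and 1428 FPKM in wild-type libraries and 1682, 1463 and 1728 FPKM in HET. Rpl38, whose loss in mice alters skeletal patterning, was at 1011, 1453 and 1103 FPKM in wild-type libraries and 1244, 1109 and 1290 FPKM in HET. Both genes had the same 3 libraries, WT 2, HET 1 and HET 3, above the rest. Rps14 and Rpl41 had means of 1154 and 1046 FPKM over the 6 libraries.

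**Figure D1:**
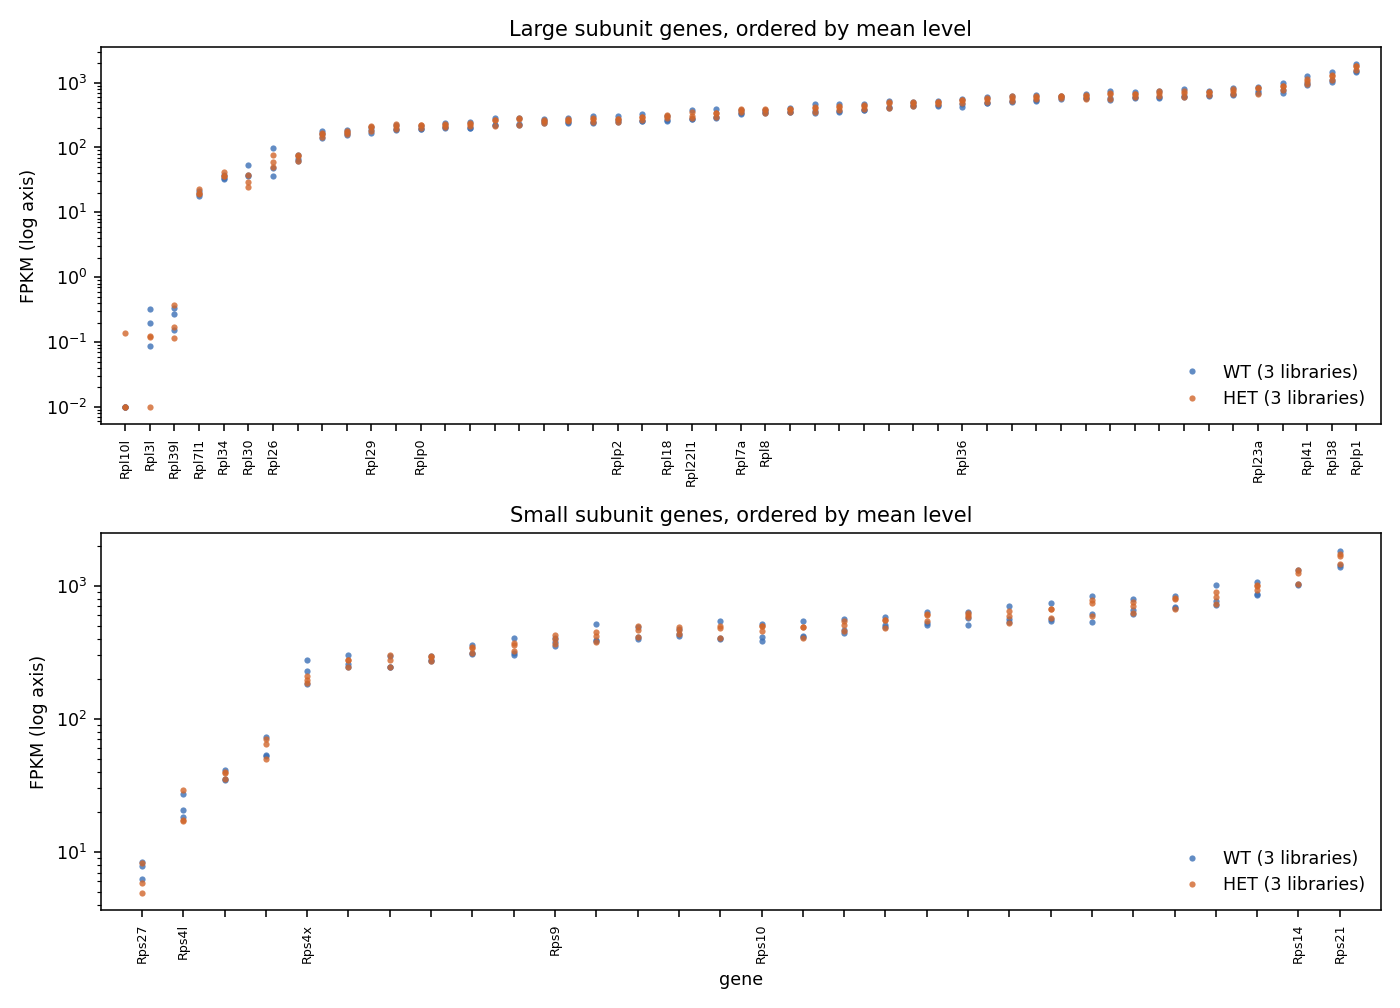
Level of 81 of the 83 ribosomal protein genes in every library, in FPKM on a log axis, with wild-type libraries in blue and HET libraries in orange, and values under 0.01 FPKM drawn at 0.01. Names are given for genes chosen by the rule on named genes. Most genes lie between 100 and 1000 FPKM, and the ranges of blue and orange points overlap in every tested gene shown.

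A few genes stood far below their partners. Rps27, a zinc-finger protein gene of the small subunit (chromosome 3, 90212667 to 90213648), was at 8.36, 7.84 and 6.23 FPKM in WT 1 to WT 3 and at 8.28, 5.80 and 4.91 FPKM in HET 1 to HET 3, although its protein is a standard part of the subunit. The retrogene copy Rps27rt, listed in the same files, was at 1336 to 1976 FPKM. Of the 50-base windows of the annotated Rps27 transcript, 98.6% also occurred in transcripts of other genes, with Rps27rt sharing all of that part. Rpl34, a large subunit gene, was at 33.2 to 41.2 FPKM, whereas the row of its pseudogene Rpl34-ps1 held 523 to 675 FPKM. Rpl30, at 24.2 to 53.3 FPKM, had all of its shared windows in Gm12191, whose row held 641 to 895 FPKM. Rpl26, at 36.4 to 96.9 FPKM, shared 60.6% of its windows with Gm15772, whose row held 840 to 1127 FPKM. How reads were divided between these rows was not tested.

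Values of single genes with close copies are therefore uncertain, since the files give no rule for reads that match several places. The shared part was 71.3% for Rpl26, 47.8% for Rpl30, 72.2% for Rps4x, 93.3% for Rpl9 and 92.1% for Rpl10. It was 2.96% for Rps3, which is part of the mRNA entry channel. Across the 79 tested genes with an annotated transcript, the shared part and the mean log2 level had a Pearson correlation of 0.14 (Spearman 0.22). These genes share the same 6 libraries, and the correlation is a description.

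Paralogs with restricted expression were low or absent. Rpl10l, the autosomal copy of X-linked Rpl10 that serves in the male germ line, was listed at 0.136 FPKM in HET 1 and at about 0 in the other libraries, against 437 to 517 FPKM for Rpl10. Rpl3l, the striated muscle form of Rpl3, reached at most 0.329 FPKM, and Rpl39l, a paralog of Rpl39 known from testis, at most 0.370 FPKM. Their parent genes Rpl3 and Rpl39 had means of 602 and 632 FPKM.

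Other paralogs were expressed. Rpl22l1 was at 279, 383 and 279 FPKM in WT 1 to WT 3 and at 355, 288 and 309 FPKM in HET 1 to HET 3, while Rpl22, its parent gene, was at 61.5 to 76.8 FPKM. The paralog thus had the higher per-length level in all 6 libraries, although 52.7% of its windows occur in other genes and 5.19% of those of Rpl22. Rps27l, a p53 target in mouse and human cells, was at 50.3 to 73.4 FPKM. Rpl7l1, a large subunit assembly factor related to Rpl7, was at 18.2 to 23.0 FPKM against 405 to 515 FPKM for Rpl7, and Rps4l was at 17.1 to 29.4 FPKM against 181 to 275 FPKM for Rps4x.

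Promoter sequence was looked at because most members rose and fell together across libraries, as described further on. Windows from 250 bases before to 50 bases after an annotated start (RefSeq, GRCm38.p6) matched 62 of the 83 genes. A stretch of at least 8 pyrimidines in a row, all within 10 bases of a start on either side, was found in 21 of 62 members, or 33.9%, and in 8.81% of the 17191 genes of the files that had a window. The Ets factor core CCGGAAG, on either strand of the whole window, occurred in 40.3% of members and 12.8% of all these genes, and the YY1 core AAGATGGC in 9.68% and 3.64%. Among genes tested for expression, the pyrimidine run was found in 35.6% of 59 members and 9.97% of 9896 genes, and the Ets core in 40.7% and 19.0%. The core TGGAAA, which TonEBP and the other NFAT proteins recognise as part of longer sites, occurred in 12.9% of members and 22.3% of all genes, or 11.9% and 19.3% among those tested. A match is only a stretch of letters, and no match says nothing about a factor.

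Stretches of 60 bases, from 40 before to 20 after a start, are shown for some of the members. Capitals mark the whole length of the pyrimidine run that holds the most bases within 10 of the start. Where a gene had several annotated starts, the start with the longest such run is shown. The first 5 genes followed the common pattern over libraries, and the last 3 did not.
Rps21 (chr2:180257339-180257398, plus strand): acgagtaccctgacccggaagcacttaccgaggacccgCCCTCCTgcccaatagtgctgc
Rpl38 (chr11:114668540-114668599, plus strand): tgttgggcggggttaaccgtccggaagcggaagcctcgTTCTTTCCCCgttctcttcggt
Rps28 (chr17:33824543-33824602, minus strand): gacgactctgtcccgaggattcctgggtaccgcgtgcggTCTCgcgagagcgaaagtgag
Rpl35 (chr2:39005112-39005171, minus strand): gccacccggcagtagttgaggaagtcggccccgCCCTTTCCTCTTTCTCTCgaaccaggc
Rpl7a (chr2:26910767-26910826, plus strand): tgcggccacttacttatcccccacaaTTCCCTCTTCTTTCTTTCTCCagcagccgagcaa
Rps27 (chr3:90213629-90213688, minus strand): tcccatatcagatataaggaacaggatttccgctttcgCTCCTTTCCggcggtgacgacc
Rpl26 (chr11:68901526-68901585, plus strand): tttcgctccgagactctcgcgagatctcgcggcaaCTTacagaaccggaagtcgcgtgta
Rps4x (chrX:102189372-102189431, minus strand): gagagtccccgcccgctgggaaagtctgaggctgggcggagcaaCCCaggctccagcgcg
The run of Rpl35 was 18 bases long and that of Rpl7a 21, each with 17 bases within 10 of the start. Over the 62 members the median of the longest run within 10 was 6. Those of Rpl26 and Rps4x were 3 bases long, but Rps27 had a run of 9 and Rps28 one of 4. Among the genes shown, run length thus did not separate those that followed the pattern from those that did not. The rows of Rps27 and Rpl26 share windows with Rps27rt and Gm15772, which followed the pattern, so their own order of libraries is uncertain. These few genes cannot show whether run length and the pattern are related.

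Across the 6 libraries the ribosomal protein genes moved as a block, and the block did not follow genotype. After subtraction of each gene's mean log2 value, the median over the 80 genes was -0.13 in WT 1, 0.16 in WT 2 and -0.12 in WT 3, and 0.07 in HET 1, -0.10 in HET 2 and 0.10 in HET 3. WT 2, HET 1 and HET 3 were high and WT 1, WT 3 and HET 2 low. Over all 13122 genes tested the medians stayed between -0.01 and 0.01. In 72 of the 80 members (90%), all of WT 2, HET 1 and HET 3 lay above all of WT 1, WT 3 and HET 2, a pattern found in 10.8% of all genes tested. The reverse order was found in 1 member, Rps4l, and in 8.9% of all genes. These 3 libraries were singled out after their values were seen, so the counts describe the libraries and no test was made.

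**Figure D2:**
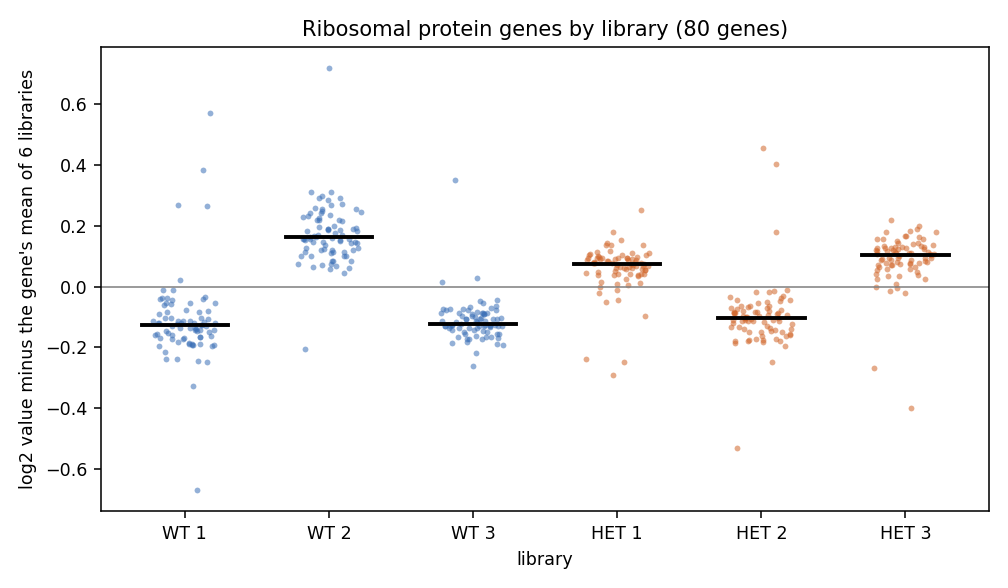
Deviation of each of the 80 tested ribosomal protein genes from its own mean over the 6 libraries (log2, y axis), by library (x axis), with black bars at the medians. The medians of WT 2, HET 1 and HET 3 lie at 0.16, 0.07 and 0.10, and those of WT 1, WT 3 and HET 2 at -0.13, -0.12 and -0.10.

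The same order held in both subunits. Of 32 small subunit genes 28 had the 3 libraries on top, and of 48 large subunit genes 44. The stalk genes all did, including Rplp0, the scaffold of the stalk, at 193, 217 and 195 FPKM in wild-type libraries and 221, 198 and 223 FPKM in HET. So did Rpl5 and Rpl11, which travel with the 5S rRNA and can bind the p53 regulator Mdm2. Rpl11 was at 609, 751 and 580 FPKM in WT 1 to WT 3 and at 697, 612 and 732 FPKM in HET 1 to HET 3. WT 2 held the highest value in 61 of the 80 genes, and WT 1 the lowest in 38, WT 3 in 25 and HET 2 in 15.

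Compared library by library, HET 1 and HET 3 lay below WT 2 and above WT 1 and WT 3. The median log2 difference of the members was -0.09 for HET 1 minus WT 2 (7 of 80 higher in HET 1) and -0.06 for HET 3 minus WT 2 (11 of 80 higher in HET 3). For HET 2 it was 0.03 against WT 1 and 0.02 against WT 3, with 50 of 80 genes higher in HET 2 in each case. The largest median difference between any pair of libraries, WT 2 minus WT 1, was 0.30, a ratio of 1.23.

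The size of the block differed between genes. Rps28, a short small subunit gene, was at 538, 838 and 615 FPKM in WT 1 to WT 3 and at 743, 595 and 776 FPKM in HET 1 to HET 3, so that its highest library had 1.56 times its lowest. Rpl3, which lies near the peptidyl transferase centre, was at 597, 633 and 558 FPKM in wild-type libraries and 617, 576 and 632 FPKM in HET, a ratio of 1.13 with the same order. The smallest ratio among tested members was that of Rps13, at 1.10, and the median was 1.26. Over all genes tested the median ratio was 1.28.

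Transcript length moved with the size of the block. Across the 79 tested members with an annotated transcript, the difference WT 2 minus WT 1 and log2 length had a Spearman correlation of -0.48 (Pearson -0.26), a description over genes that share the same libraries. Genes that are no members showed a like order when short. In the 197 of them with transcripts of up to 600 bases, the medians were -0.10, 0.15 and -0.08 in WT 1 to WT 3, against 0.03, -0.05 and 0.06 in HET 1 to HET 3, and 33.5% had WT 2, HET 1 and HET 3 on top. Among those of over 1000 and up to 1500 bases the share was 14.6% of 1250 genes, whereas all 14 members of that length had the pattern. Above 4000 bases it was 5.74% of 3626 genes.

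**Figure D3:**
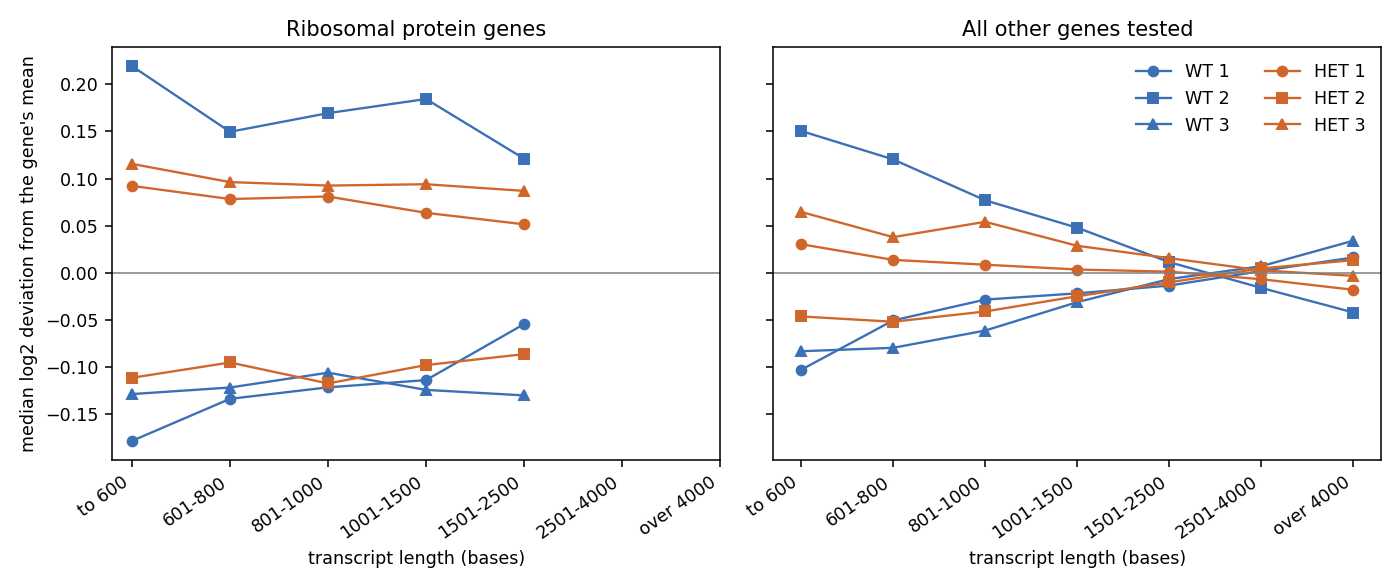
Median log2 deviation from each gene's mean (y axis) by transcript length in bases (x axis) for each library, in ribosomal protein genes (left) and all other genes tested (right), drawn where a length class held at least 7 genes. In short genes of both kinds WT 2 is on top, at 0.22 and 0.15 up to 600 bases, and from over 1500 to 2500 bases the medians still span -0.13 to 0.12 on the left and only -0.01 to 0.02 on the right.

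A correction for length, chosen after seeing the data, was made by subtracting from each library a smooth trend on length fitted to genes that are no members. The medians of the members were then -0.08, 0.09 and -0.06 in WT 1 to WT 3, against 0.06, -0.06 and 0.06 in HET 1 to HET 3. The same 3 libraries lay on top in 53 of 79 members, or 67.1%, and in 9.71% of all genes. With quantile normalization the count was 26 of 80, and the share over all genes in that setting is not given here. Why the count fell was not tested.

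Choroid plexus markers had the same libraries on top. The choroid plexus secretes cerebrospinal fluid and lies against the hippocampus, so that pieces of it can come along in dissection. All 8 markers of the list had WT 2, HET 1 and HET 3 above the other libraries. The best known, Ttr, which encodes transthyretin, was at 1017, 2801 and 263 FPKM in WT 1 to WT 3 and at 1731, 87.4 and 3338 FPKM in HET 1 to HET 3. The summed level of the 8 markers ranged from 284 to 2900 FPKM in wild type and from 98.5 to 3467 FPKM in HET. HET 3 had the largest sum, whereas WT 2 had the largest median of the ribosomal protein genes, and WT 1 had a sum of 1063 FPKM against 284 FPKM in WT 3, with ribosomal medians of -0.13 and -0.12. The part of choroid plexus content in the ribosomal pattern was not tested. In bulk tissue, fewer cells of a type and less RNA per cell cannot be told apart.

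Markers of thalamus and habenula followed another order, with medians of 0.18, 0.25 and 0.22 in WT 1 to WT 3, against 0.31, -0.43 and -0.55 in HET 1 to HET 3. HET 3, low in these markers, was high in ribosomal protein genes, and HET 2, also low in them, was not. Neuron markers had medians between -0.10 (HET 3) and 0.08 (WT 3), and 0 of 7 had WT 2, HET 1 and HET 3 on top. In 2 of the 7 (28.6%), Snap25 and Syt1, these libraries all lay below the others, an order found in 8.9% of all genes tested.

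The other 8 members had a different order. Rpl26, a large subunit gene that also binds the p53 message, was at 36.4, 96.9 and 48.7 FPKM in WT 1 to WT 3 and at 49.4, 77.7 and 60.6 FPKM in HET 1 to HET 3. WT 2 and HET 2 were its highest libraries, and its highest value was 2.66 times its lowest, the widest range of any tested member. Rpl30 (chromosome 15, 34440505 to 34443276), a large subunit gene, was at 53.3, 37.5 and 36.2 FPKM in wild-type libraries and 29.7, 24.2 and 38.3 FPKM in HET. Rps4x (chromosome X, 102184941 to 102189391) was at 275, 230 and 181 FPKM in wild-type libraries and 197, 186 and 209 FPKM in HET. In both Rpl30 and Rps4x, WT 1, a low library for most members, was the highest. The rows Gm12191, which shares windows with Rpl30, and Gm15772, which shares windows with Rpl26, had the common order of libraries, as did Rps27rt. Rps27, Rpl34, Rpl7l1 and Rps4l were also among them, and Rps4l was highest in HET 2 and WT 3.

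The design had named WT 2 and HET 2, which share a replicate number, as the libraries to compare with the other 4. The median offset of that pair was 0.05 over the members. Members with an offset below 0 included Rpl30, Rps4x, Rpl8, Rps9, Rpl23a, Rpl29, Rps27 and Rplp0, and Rpl26 (0.84), Rps4l, Rpl34, Rpl38 and Rpl22l1 had the largest offsets. Because HET 2 was low in most members and WT 2 high, this pair did not describe the block.

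The comparison of genotypes asked whether any ribosomal protein gene differed in TonEBP+/- hippocampus. In limma with Benjamini-Hochberg adjustment, 0 of the 80 members passed an adjusted p of 0.05, where 0% of the 13122 genes did. At an unadjusted p under 0.05 the counts were 0 of 80 members and 484 of all genes (3.69%). The 2 genotypes failed to overlap in 0 of 80 members and in 8.52% of all genes. The 95% interval of the difference lay within 0.5 on the log2 scale in either direction for 75 of the 80 members, with a median half-width of 0.24.

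Small differences leaned upward. The log2 difference was above 0 in 68 of 80 members, against 50% of all genes tested, with a median of 0.05 against -0.00 over all genes. This direction rested on single libraries: without WT 1 it was above 0 in 37 members with a median of -0.00, and without WT 2 in 75 with a median of 0.15. Without WT 2, 7 of 80 members had an unadjusted p under 0.05, against 5.43% of all genes, and 35 did not overlap between genotypes, against 21.7%. With WT 2 and HET 2 both left out, the remaining HET libraries lay above the remaining wild-type libraries in most members. The genotypes then did not overlap in 76 of 80 members, against 39.7% of all genes, and 62 of 80 had an unadjusted p under 0.05, against 8.43% of all genes, but 0 passed after adjustment (smallest adjusted p of a member 0.285). WT 2 and HET 2 lie on the sides of the block opposite to the other libraries of their genotypes. The 72 members with WT 2, HET 1 and HET 3 on top were thus bound not to overlap once both were left out. These counts restate that split, in genes that share the same libraries, and are no separate result on genotype.

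Rps10, a small subunit gene, had the largest positive difference. It was at 384, 512 and 411 FPKM in WT 1 to WT 3 and at 494, 453 and 497 FPKM in HET 1 to HET 3. The log2 difference was 0.15 (SE 0.113, 95% interval -0.10 to 0.41, adjusted p = 1.00), and WT 2 was above all HET libraries. Rpl18 (0.13, SE 0.0929), Rpl34 (0.10, SE 0.0798), Rpl7a (0.09, SE 0.0887) and Rpl36 (0.12, SE 0.109) were the other members with the smallest p among positive differences, all large subunit genes.

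Rpl30 had the largest negative difference, -0.45 (SE 0.204, 95% interval -0.94 to 0.04, unadjusted p = 0.0646, adjusted p = 1.00). HET 3 lay above WT 2 and WT 3, so the genotypes overlapped, and the level of this row is uncertain because of Gm12191. Without WT 1 its difference was -0.28, and without HET 2 it was -0.30. Other members with small p among negative differences were Rps4x (-0.19, SE 0.137), Rps27 (-0.23, SE 0.169) and the stalk gene Rplp2 (-0.03, SE 0.0960), and without WT 1 the difference of Rps4x was -0.05. Rpl30, Rps4x and Rps27 are among the 8 members that did not share the common order of libraries.

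**Figure D4:**
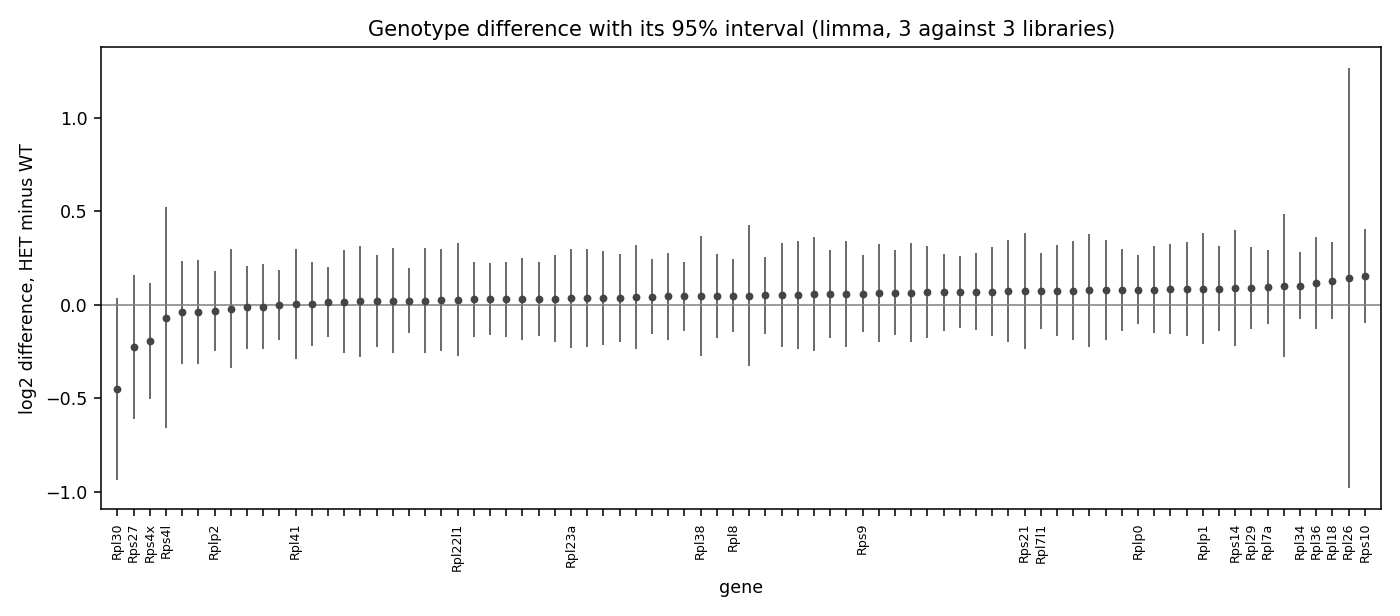
Log2 difference, HET minus wild type (y axis), of 78 of the 80 tested ribosomal protein genes (x axis, names as in the plot of levels), with 95% intervals from limma on 3 against 3 libraries. The interval of every gene shown includes 0, and the widest is that of Rpl26, from -0.98 to 1.27.

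By role, the stalk genes had differences of 0.08 (Rplp0, SE 0.0824), 0.09 (Rplp1, SE 0.133) and -0.03 (Rplp2), and the 5S partners of 0.07 (Rpl5, SE 0.0920) and 0.08 (Rpl11, SE 0.119). Rplp1, for instance, was at 1629 ± 238 FPKM in wild-type libraries and 1722 ± 125 FPKM in HET (SD, n = 3 each). Among genes for ribosomal proteins fused to ubiquitin or a ubiquitin-like protein, Fau had a difference of 0.04 (SE 0.103) and the member Rps27a of -0.04 (SE 0.124). The expressed paralogs Rpl22l1, Rps27l, Rpl7l1 and Rps4l had differences of 0.03, 0.05, 0.08 and -0.07 (SE 0.244 for Rps4l), against 0.05 for Rpl22, 0.08 for Rpl7 and -0.19 for Rps4x. None of these genes passed.

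Rows near the rule were few. Rpl36al and Rps3a1, expressed ribosomal protein genes whose symbols it does not take, had means of 194 and 667 FPKM, and both had WT 2, HET 1 and HET 3 on top, as did Rps27rt, Fau and Gnb2l1, whose product RACK1 sits on the small subunit. Of 7 listed pseudogenes, 5 were tested, all 5 were higher in HET and 0 passed. Rpl14-ps1, whose row shares windows with 49.3% of Rpl14, was at 10.1 ± 1.54 FPKM in wild-type libraries and 13.3 ± 0.729 FPKM in HET (SD, n = 3 each; log2 difference 0.37, SE 0.104, adjusted p = 1.00), without overlap between genotypes, and Rps15a-ps6 had a difference of 0.45 (SE 0.183). None of the 5 had the 3 libraries on top.

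Genes that build or use the ribosome were examined next, in lists drawn up by function. The listed genes for ribosome assembly and for RNA polymerase I did not share the block. Of 35 genes for ribosome assembly and rRNA processing, 4 had WT 2, HET 1 and HET 3 on top (11.4%, near the 10.8% of all genes), and medians ranged from -0.03 (WT 1) to 0.05 (HET 3). For RNA polymerase I and its factors it was 2 of 14, and for mTOR pathway genes and other regulators of translation 1 of 18. Median transcripts of these lists had 2613, 2224 and 2962 bases, against 780 in the members. Of other genes of over 2500 and up to 4000 bases, 8.83% had the order. Host genes of small nucleolar RNAs had WT 2, HET 1 and HET 3 on top in 3 of 9 (33.3%), and initiation factor 3 subunits in 5 of 12 (41.7%). Translation factors and partners, many of which carry a TOP motif, had it in 10 of 22 (45.5%), with medians of -0.05, 0.07 and -0.07 in WT 1 to WT 3, against 0.03, -0.07 and 0.05 in HET 1 to HET 3.

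Shares in other lists of housekeeping genes are given against the 10.8% of all genes. Nuclear-encoded respiratory chain genes, with a median transcript of 681.5 bases, had WT 2, HET 1 and HET 3 on top in 41 of 74 (55.4%), although the median of HET 1 was 0.00 there and 0.07 in the ribosomal protein genes. Among all genes of over 600 and up to 800 bases that are no members, the share was 26.5% of 309. Proteasome genes had this order in 11 of 37 (29.7%). Mitochondrial ribosomal proteins, which serve a different ribosome, had it in 10 of 77 (13.0%), near the share over all genes and below the 14.6% of other genes of over 1000 and up to 1500 bases. Their median transcript had 1226 bases.

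**Figure D5:**
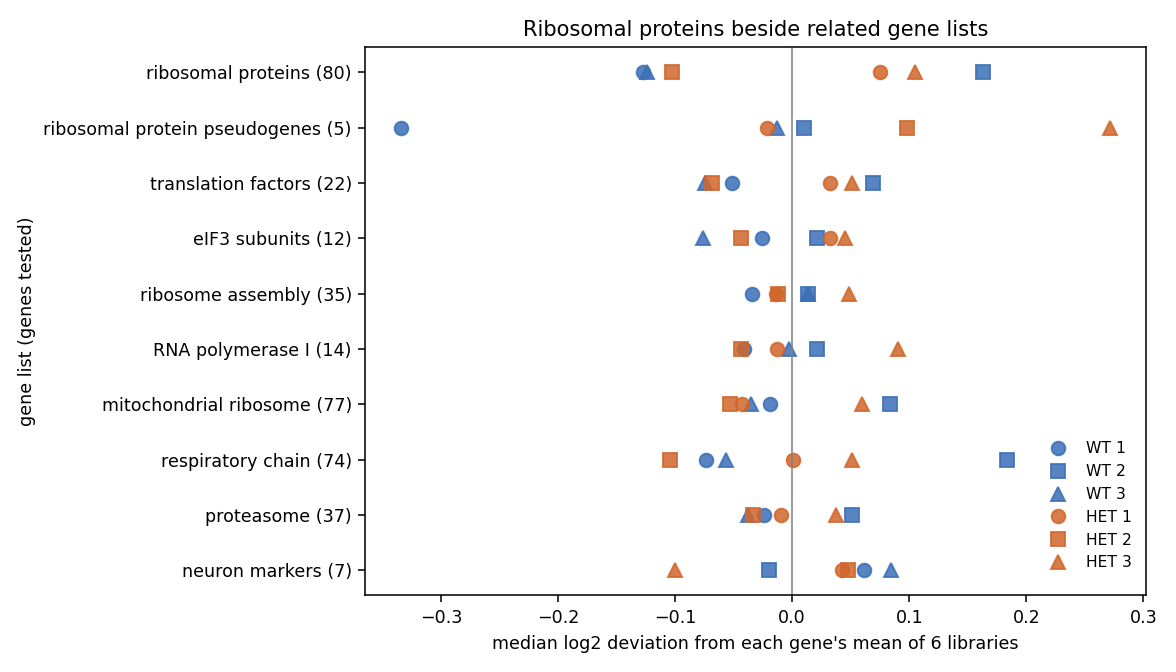
Median log2 deviation from each gene's mean over the 6 libraries (x axis) for ribosomal protein genes and related lists (y axis, genes tested in brackets), with 1 symbol per library. In the top row the libraries form 2 sets of 3, from -0.13 to -0.10 and from 0.07 to 0.16, while for ribosome assembly genes they lie between -0.03 and 0.05. The 5 pseudogenes spread more widely, in another order.

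In none of these lists did a gene pass in the comparison of genotypes. Assembly genes were higher in 21 of 35 (median 0.02), led by Gtpbp4, a large subunit assembly GTPase gene (0.21, SE 0.0785), and Nop14, a small subunit processome gene (-0.25, SE 0.0986). Translation factors were higher in 13 of 22, with Hnrnpa1, an RNA-binding protein gene, at -0.25 (SE 0.0822) and Eif3l, a subunit of initiation factor 3, at -0.15 (SE 0.0682). For RNA polymerase I it was 8 of 14 (Twistnb, -0.14, SE 0.0982, and Polr1e, -0.12, SE 0.118, both polymerase subunits). Growth control genes were higher in 11 of 18 (Rps6kb2, an S6 kinase gene, -0.34, SE 0.196, and Eif4ebp2, a brake on cap-dependent translation, 0.13, SE 0.0762). The value of Rps6kb2 rested on WT 3, at 3.06 FPKM against 1.04 to 1.51 FPKM in the other libraries, and was -0.11 without it.

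Genes of ribosome surveillance and the p53 link were higher in 9 of 12 (Mdm2, 0.09, SE 0.0765, and the cell-cycle inhibitor Cdkn1a, 0.15, SE 0.144). Host genes of small nucleolar RNAs were higher in 6 of 9 (Snhg5, -0.19, SE 0.127, and Snhg3, -0.12, SE 0.108). Among initiation factor 3 subunits, Eif3g had a difference of 0.16 (SE 0.0618), and 6 of 12 were higher. Mitochondrial ribosomal proteins were higher in 32 of 77 (median -0.02), with Mrpl47 at -0.29 (SE 0.0784) and Mrps28 at 0.21 (SE 0.0869). Respiratory chain genes were higher in 20 of 74 (median -0.05), with Ndufa10 at -0.24 (SE 0.0610) and Uqcrfs1 at -0.21 (SE 0.0727), and proteasome genes in 16 of 37 (Psmd12, -0.09, SE 0.0736, and Psma4, 0.10, SE 0.0845).

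Handling of tissue can move other genes, so early response and heat shock genes were listed too. Of 17 early response genes 1 had the 3 libraries on top and 9 were higher in HET. Btg2, an antiproliferative gene, had a difference of -0.59 (SE 0.115, adjusted p = 0.945) and the phosphatase gene Dusp1 one of -0.62 (SE 0.172). Of 7 heat shock genes 0 had that order and 5 were higher in HET, with Hspb1 at 0.46 (SE 0.171) and Hspa1a at 0.27 (SE 0.159). None passed.

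Genes outside the set with the most similar profile were sought by Pearson correlation over the 6 libraries with the mean deviation of the members. The first 5 were Fau (0.996), Cox5b (0.996), Scarna13 (0.995), Gm12191 (0.995) and Nab1 (0.994). Fau, which the rule leaves out by its symbol, encodes the ribosomal protein of the small subunit made as a ubiquitin-like fusion, and was at 469, 565 and 472 FPKM in WT 1 to WT 3 and 527, 473 and 546 FPKM in HET 1 to HET 3. Cox5b encodes a subunit of cytochrome c oxidase, Scarna13 is a small Cajal body RNA, Gm12191 is the row that shares 47.8% of the windows of the member Rpl30 and so is not independent of the set, and Nab1 encodes a corepressor of Egr factors. A correlation above 0.9 with that mean was reached by 62 of the 80 members, which contribute to it, and by 328 of 13042 other genes (2.51%). With n = 6 libraries such values describe these libraries.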

How the data were processed

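Hippocampal RNA was measured in 6 libraries, 3 per genotype, made from total RNA with a strand-specific kit per the labels' protocols. The submitters' processing notes name the aligner TopHat and the genome build mm10. For the TopHat version, annotation and quantifier: not given in the sources used here. Deposited values are log2, taken as log2(value + 1) of FPKM from the values alone, since the file headers name no unit. Low values tended to fall on whole steps once transcript length was allowed for (63.2% to 67.6% per library within 0.15 of one). The step of each library was chosen for the closest fit to these values. No share for evenly spread values is given, so the shares do not test the reading as FPKM. If that reading is wrong, FPKM values, the filter and shares change, and log2 differences do not.

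The filter was 1 FPKM in 3 libraries or more, which 13122 genes passed. Genotype was the only term in limma 3.58.1 (R 4.3.3), run on log2 values with its trend and robust settings. P-values were adjusted by Benjamini-Hochberg across the tested genes, with a threshold of 0.05, and every adjusted p given for a gene is from this fit. Differences of low genes are understated on this scale. The procedure was also run on simulated data, whose outcome is not given here. Noise was drawn there for each gene on its own, so the simulation does not cover genes that move together between libraries. The members, the gene lists and the named-gene rule (stalk, 5S and paralog genes; the 5 highest and lowest in level, in offset and in p per direction; the 2 smallest p of each list; the 5 nearest profiles) were chosen with earlier results of these data known. Transcript length is that of the middle coding isoform with a RefSeq match in GENCODE M21 (GRCm38), found for 12546 of the tested genes and 82 of 83 members; shared windows are exact 50-base matches in the sense of transcription. Alternatives were other scalings and filters, a pseudocount of 0.1, no robust option, a replicate block, libraries left out, and the length correction. Figures were drawn with matplotlib 3.10.9. Values of some single genes are not reported here; they stay in the counts and medians.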

Additional observations from a re-analysis of the deposited data

How the results depend on the processing

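The count of 0 members past the threshold held under every alternative run, and so did 0 genes past it in the related lists. Leaving out 1 library at a time, the number of all genes called ranged from 0 to 8, the members higher in HET from 37 to 75, the median difference of the members from -0.00 to 0.15, the members without overlap between genotypes from 0 to 35 (35 without WT 2, where 21.7% of all genes did not overlap), and the offset of WT 2 and HET 2 from -0.08 to 0.18. Without replicate 2 of both genotypes the median difference was 0.21, and 76 members did not overlap, against 39.7% of all genes. For 72 of these members the common order of libraries fixed this in advance. The difference of Rplp2 without replicate 2 of both genotypes was 0.11 in place of -0.03. Members without overlap numbered 2 with quantile normalization and 5 with the length correction, in place of 0. In the main run 8.52% of all genes did not overlap. The members with WT 2, HET 1 and HET 3 on top numbered 26 with quantile normalization, in place of 72. Shares over all genes are not given here for these counts under the same setting, so no reading is drawn from the changes. The cause was not tested. Differences of single genes changed sign for Rplp1 (-0.027), Rps21 (-0.14) and Fau (-0.019) with quantile normalization, and for Rpl41 with median scaling (-0.010) and with the length correction (-0.017). With 1 library left out at a time, differences that changed sign ranged from -0.095 to 0.056 for Rplp2, -2.4e-05 to 0.20 for Rps21, -0.063 to 0.20 for Rpl38, -0.079 to 0.13 for Rpl41, -0.16 to 0.54 for Rpl26, -0.31 to 0.090 for Rps4l, -0.056 to 0.18 for Rpl22l1, -0.035 to 0.13 for Rpl23a, -0.024 to 0.13 for Rpl22, -0.048 to 0.21 for Rps27l and -0.0042 to 0.13 for Fau. The design's pairing of WT 2 with HET 2 did not describe the order of libraries in the members. The count for WT 2, HET 1 and HET 3 was chosen after seeing the data. In their lowest values, however, WT 2 and HET 2 did stand apart. They held 6210 and 6917 genes at 0, against 4262 in each other library. Values just above 0 numbered 14 and 3 in them, against 2199 to 2609 elsewhere. Whether this difference bears on the members was not tested. With the replicate block, 0 genes were called, as without it. Because every replicate number occurs in both genotypes, the block cannot change a difference, only its p-value. The 68 members higher in HET and the median of 0.05 were therefore bound to stay. In limma with the block, 384 genes and 1 member had an unadjusted p under 0.05, against 484 and 0 without it. Same-numbered libraries had correlations of deviations of -0.21, -0.25 and -0.16, against 0.05 to 0.17 for libraries of different numbers. Deviations were taken within each genotype, so these values depend on each other and cannot show whether the numbers pair samples. The data hold no fragment counts, which limits low members such as Rps27.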
